A study of Mus musculus with 4 samples.

Results

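DNA methylation and chromatin modifying enzymes were followed through the ablation of Foxp3 in peripheral mouse regulatory T (Treg) cells. The set was listed by gene symbol, with no measured value in its rule: 36 genes, found on 89 of the 45101 probe sets of the arrays, which name 18193 genes in all. Treg cells are CD4+ T cells that restrain other immune cells, and Foxp3 is the transcription factor that defines them. In 2 samples (deleted cells) Cre recombinase had acted on a Foxp3 gene flanked by loxP sites, and in 2 samples the Foxp3 gene was wild type. Both groups had received the Cre construct HR-MMPCreGFP, carried a yellow fluorescent protein that Cre switches on, and were recovered as CD4+YFP+Ly5.2+ T cells 6 weeks after adoptive transfer. YFP marks exposure to Cre and not the loss of Foxp3 itself. The sources used here do not give strain, age, the host of the transfer or whether the samples of a group came from separate animals. The p-values therefore cover the spread between these 4 samples, and that spread may be technical.

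Chromatin enzymes set which genes a cell can read. DNA methyltransferases add methyl groups to cytosine and Tet enzymes start their removal; in stable Treg cells an intronic element of Foxp3 is kept free of methylation, and Tet enzymes are known to take part in this. Polycomb proteins place a repressive methyl mark on histone H3 that the demethylases Kdm6a and Kdm6b erase. Acetyltransferases and deacetylases act in opposition on histones and also on Foxp3 protein, for which Kat5, Ep300, Hdac7 and Hdac9 are known partners, while remodellers use ATP to move or eject nucleosomes.

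Values below are log2 intensities unless said otherwise, and a difference is the mean of the deleted arrays minus the mean of the wild-type arrays with its standard error (SE, n = 2 per group). Each gene was read from its brightest probe set, and was tested where that probe set averaged 4 or more. Foxp3 read 8.77 and 8.75 on the deleted arrays against 11.40 and 11.23 on the wild-type arrays, a difference of -2.55 (SE 0.28, adjusted p = 0.0749). The groups did not overlap for Foxp3, in the direction the labels give. All 10 CD4+ T cell markers passed the filter, between 7.15 and 13.43, and Cd8a and Cd8b1 read at most 3.49. Of the CD4+ T cell markers 8 had a higher mean in deleted cells, 4 of them at an unadjusted p under 0.05 (Cd4 by 1.56, Lat by 1.05, Thy1 by 0.95 and Cd28 by 0.94), where 9.95% of all genes reached that p. Cd2 and Cd5 had a lower mean (differences -0.91 and -0.17), Cd2 without overlap. The summed intensity of the list was 27901 and 28629 in deleted and 21598 and 19881 in wild-type cells. The part of this in the results on chromatin enzymes was not tested. Of 10 measured myeloid and dendritic markers 3 passed, with Lyz2 at 9.69 in deleted replicate 1 against 5.65 to 7.24 on the other arrays. The summed intensity for the list was 1843 there against 528.4 to 652.3. Csf1r was well above the filter on every array, at 9.85 and 8.93 in deleted and 9.06 and 8.30 in wild-type cells. Adgre1 lay between 4.32 and 4.44. Below the filter, Fcgr3 read 5.01 in deleted replicate 1 against 3.07 to 3.20 on the other arrays, while Mpo was highest in deleted replicate 2, at 4.06. Of the B cell markers Cd79b read 4.04 and 4.94 in deleted and 6.58 and 6.49 in wild-type cells (difference -2.04, SE 0.42, unadjusted p = 0.0041, adjusted p = 0.22), and Cd22 read 5.86 and 6.33 against 5.70 and 3.76 (difference 1.37, SE 0.69). Both were without overlap, in opposite directions. Ms4a1, below the filter, read 3.64 and 3.55 in deleted and 4.12 and 3.78 in wild-type cells, lower without overlap. Cd79a, Pax5 and Blnk stayed at or below 2.49.

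A further measure moved with the groups. Signal near the 5′ end of Actb was 9.97 and 10.64 on the deleted arrays against 7.34 and 8.18 on the wild-type arrays, and the gap between the 3′ and 5′ control probe sets was 4.91 and 4.47 against 7.26 and 6.60. For Gapdh this gap was 5.89 and 4.17 against 7.24 and 7.08. Both controls thus had the larger gap on both wild-type arrays. The positions of the members' probe sets along their transcripts are not in the annotation used here, and the part of this measure in the differences below was not tested. In bulk samples, fewer cells of a type and less RNA per cell cannot be told apart.

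Most chromatin enzymes were measured above the filter in Treg cells. Of the 36 genes 34 passed the filter. Tet1 and Hdac9 did not: the 4 Tet1 probe sets stayed at or below 3.29 and both Hdac9 probe sets at or below 3.73 on all arrays. Of the 34, 19 had a higher and 15 a lower mean in deleted cells, with a median difference of 0.03 against -0.02 over all 8629 genes tested. In limma 0 members had an adjusted p under 0.05, as 0 of all genes did (0%). At an unadjusted p under 0.05 there were 5 members, 4 higher (Tet3, Kdm6a, Kdm5a and Chd4; background 5.21%) and 1 lower (Kdm2b; background 4.74%), where 9.95% of all genes reached that p. The groups did not overlap for 7 members that were higher and 6 that were lower, or 38.2% of the 34, and for all genes this was 39.7%. By direction 17.7% of all genes were higher and 22% lower without overlap. By size, 4 members were at least 2-fold higher without overlap (background 5.57%) and 2 at least 2-fold lower (background 4.93%). The median member difference was 0.10 without wild-type replicate 1 and -0.05 without deleted replicate 2.

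**Figure D1:**
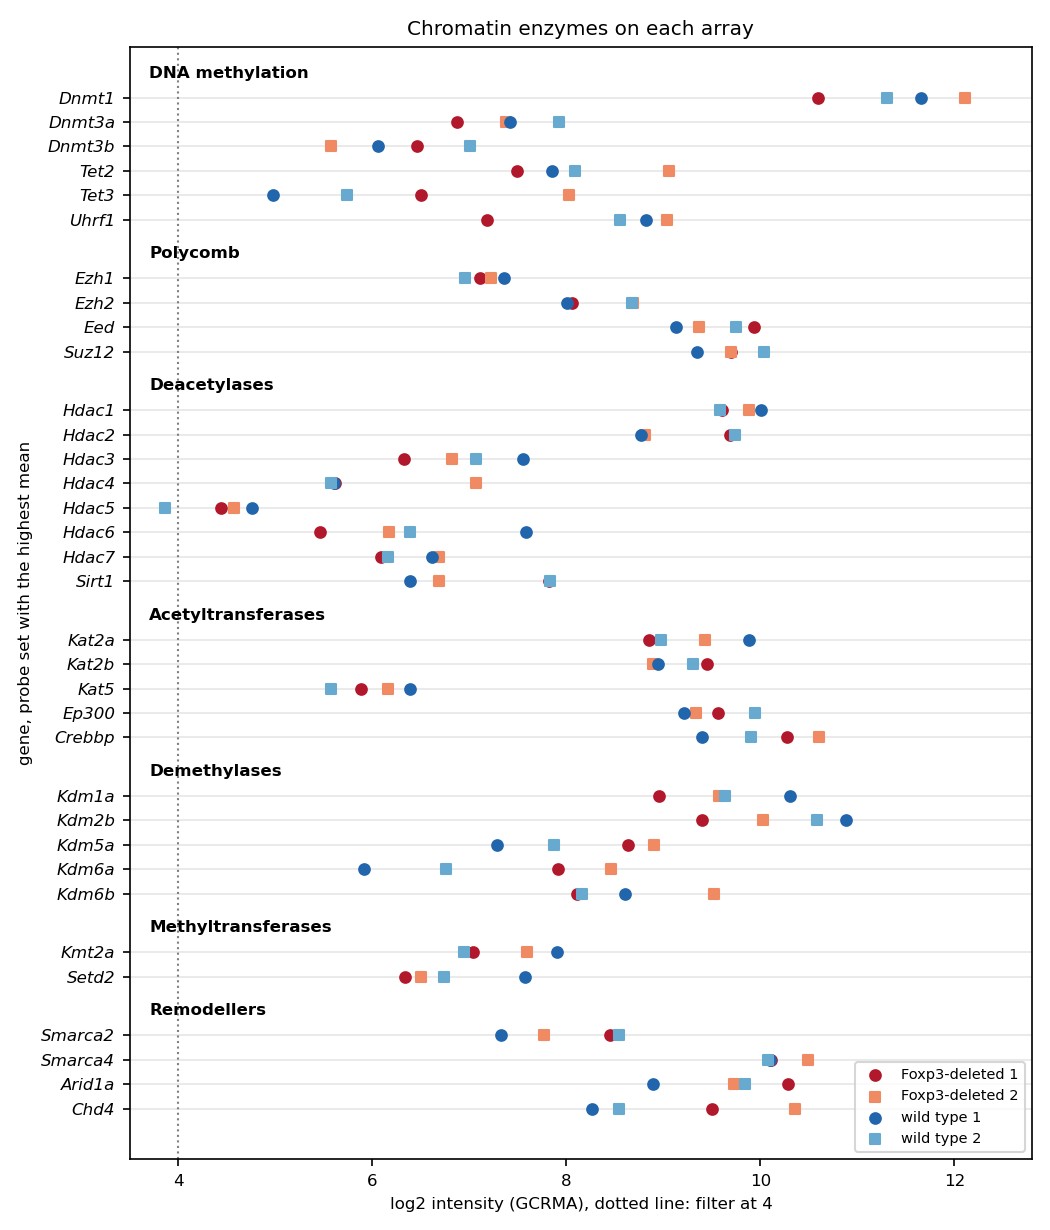
Log2 intensity (x axis) of the 34 tested chromatin enzymes (y axis, by class) on each of the 4 arrays, red and orange for Foxp3-deleted and blue for wild-type cells, with the filter at 4 as a dotted line. Points of both colours mix for most genes, whereas for Tet3, Kdm5a, Kdm6a and Chd4 the red and orange points both lie to the right of both blue ones, and for Kdm2b to the left.

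Between the replicates the median gap over the members was 0.57 in deleted and 0.64 in wild-type cells, against 0.42 and 0.43 over all genes. The median 95% interval of a member's difference reached 1.07 to either side, so for a typical member a 2-fold difference lay within the error of 2 arrays per group. An exact permutation test of 2 against 2 samples cannot give a two-sided p below 0.333, so none is reported for single genes.

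**Figure D2:**
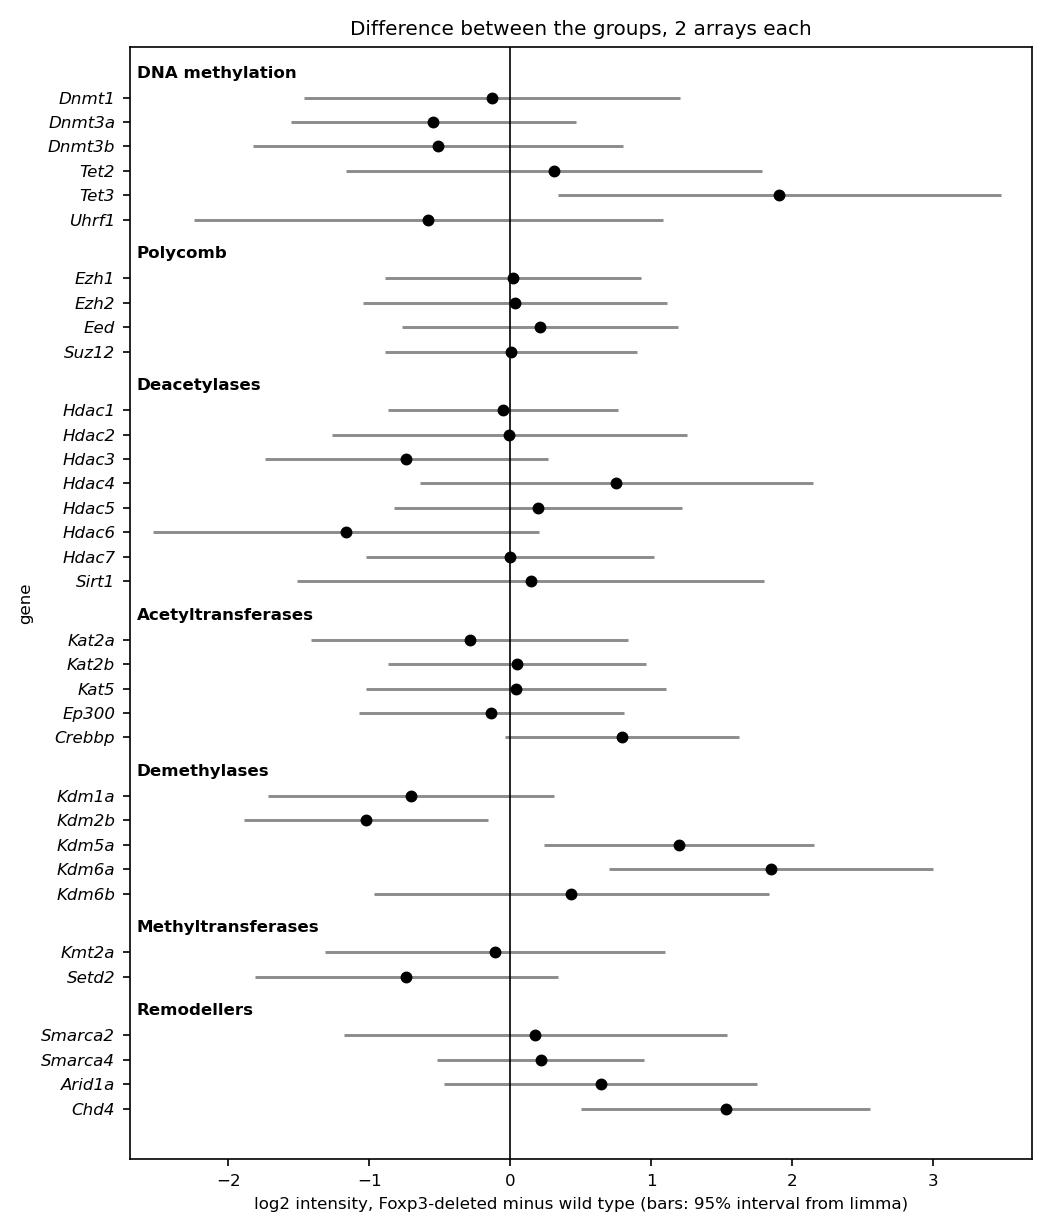
Difference in log2 intensity, Foxp3-deleted minus wild type (x axis), for each tested chromatin enzyme (y axis, by class), with its 95% interval from limma as a bar. The bars of Tet3, Kdm2b, Kdm5a, Kdm6a and Chd4 leave 0 out, and those of the Polycomb genes are centred between 0.00 and 0.21.

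In the DNA methylation class, of 6 tested genes 4 had a lower mean and 2, both Tet genes, a higher one, with a median of -0.32. That median was 0.49 when deleted replicate 1 was left out and -0.64 when deleted replicate 2 was. Tet3, a dioxygenase that oxidises methylcytosine, read 6.50 and 8.03 on the deleted arrays against 4.97 and 5.74 on the wild-type arrays. The 2 deleted arrays were both above the wild-type ones but lay 1.53 apart, and the difference was 1.91 (SE 0.62, 95% interval 0.34 to 3.48, unadjusted p = 0.0258, adjusted p = 0.402). Without deleted replicate 2 the Tet3 difference was 1.14, and without wild-type replicate 1 it was 1.52. Tet2, the related enzyme most expressed in blood cells, read 7.50 and 9.06 against 7.85 and 8.09, and its groups overlapped with a difference of 0.31 (SE 0.59). Its other probe set read 6.61 and 7.01 against 6.84 and 7.36, a difference of -0.30.

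Of the writers, Dnmt3a, which sets new methylation in T cells, read 6.87 and 7.38 on the deleted arrays against 7.42 and 7.93 on the wild-type arrays. Its groups lay close without overlapping, and the difference was -0.55 (SE 0.40, adjusted p = 0.744), but its 5 probe sets ranged from -0.75 to 0.75. Without deleted replicate 1 or wild-type replicate 2 the Dnmt3a difference was -0.29. Dnmt3b, the other de novo enzyme, read 6.46 and 5.57 against 6.06 and 7.0 (difference -0.51, SE 0.52), and 0.54 on its second probe set. The sign for this pair of genes is thus not settled by these probe sets.

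Dnmt1, which copies methylation onto newly made DNA, read 10.60 and 12.11 on the deleted arrays against 11.66 and 11.31 on the wild-type arrays, with both wild-type arrays lying between the deleted ones. The difference was -0.13 (SE 0.53). Leaving out deleted replicate 1 gave 0.63 for Dnmt1, and leaving out deleted replicate 2 gave -0.89. Its other 2 probe sets gave the same order for deleted replicate 1, at 9.16 and 8.08 the lowest array, and deleted replicate 2, at 10.71 and 9.77 the highest. Uhrf1, which binds hemimethylated DNA behind the replication fork and brings Dnmt1 to it, had this profile too, with 7.18 and 9.03 against 8.82 and 8.55 (difference -0.58, SE 0.66). Without deleted replicate 1 the Uhrf1 difference was 0.35, and without deleted replicate 2 it was -1.51. The second Uhrf1 probe set, below the filter, did not repeat this order, at 3.13 and 5.34 against 2.57 and 2.87. Its lowest array was wild-type replicate 1, and its difference was 1.51.

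Of 33 tested cell cycle genes 28 were lowest in deleted replicate 1, against 21.9% of all genes, and 21 were highest in deleted replicate 2, against 23.6% of all genes. Their median log2 intensity was 7.37 and 8.86 on the deleted arrays against 8.72 and 8.28 on the wild-type arrays, and the summed intensity of the list was 19015 and 49843 against 38585 and 36117. The largest differences in that list were 1.30 for Birc5, -1.19 for Kif2c, -1.07 for Cdc6 and -0.74 for Plk1, with standard errors from 0.74 to 1.07. The median gap between replicates of the cell cycle list was 1.5 in deleted and 0.39 in wild-type cells, and for the 6 DNA methylation genes it was 1.52 and 0.43. Birc5 is an inhibitor of apoptosis used in mitosis, Kif2c a mitotic motor, Cdc6 a loader of the replicative helicase and Plk1 a mitotic kinase. The part of the dividing cells in the spread of Dnmt1 and Uhrf1 was not tested.

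**Figure D3:**
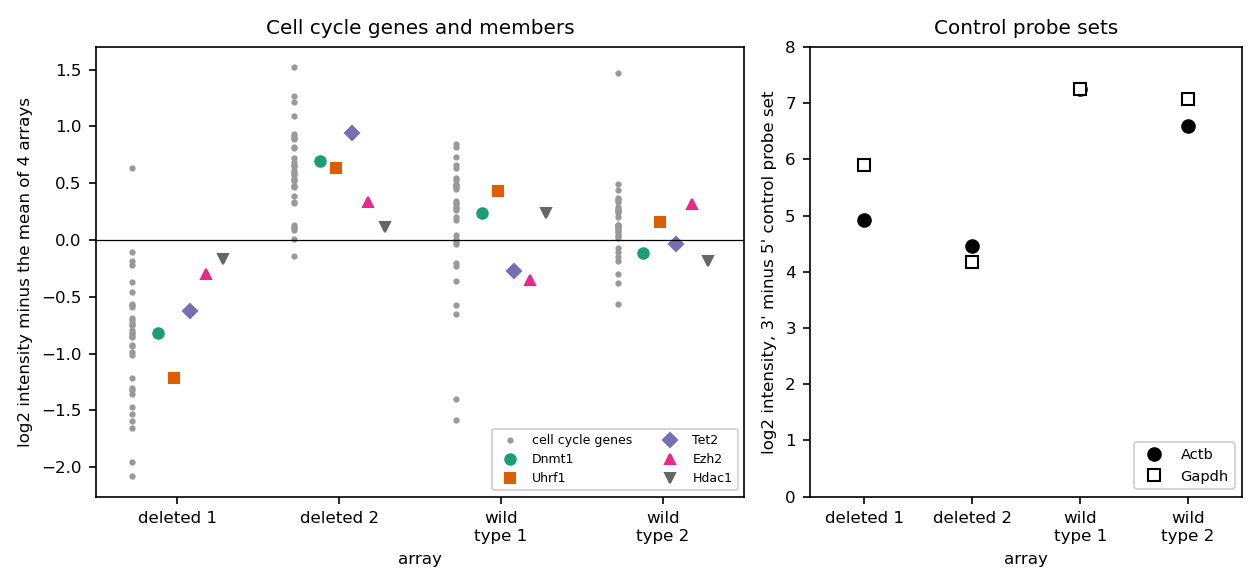
Left, log2 intensity minus the mean of the 4 arrays (y axis) on each array (x axis) for the 33 cell cycle genes (grey) and for Dnmt1, Uhrf1, Tet2, Ezh2 and Hdac1; right, the log2 gap between the 3′ and 5′ control probe sets of Actb and Gapdh. Dnmt1, Uhrf1 and Tet2 are lowest in deleted replicate 1, as most grey points are. The control gaps are larger on both wild-type arrays (6.60 to 7.26) than on both deleted arrays (4.17 to 5.89).

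Genes of DNA replication are known targets of E2F factors, so the RefSeq promoter windows (GRCm38.p6, 250 bases before to 50 after each start) were searched on both strands for the E2F letters TTTCCCGC, TTTGGCGC, TTCCCGCC and TTGGCGCC, of which the first and the third overlap when they follow in TTTCCCGCC. Of the 36 genes 32 had a window, and 5 of them (15.6%) held a match, against 4.34% of all 27025 genes in the table. By window the shares were 10.4% and 3.77%. Each of these letter strings contains CG, and the members' windows held more CpG at the median, as given below. The shares were not compared at like CpG content, so they do not show an excess of E2F letters as such. All 5 are shown because Dnmt1 and Uhrf1, whose array profile ran with the cell cycle genes, are among them. Tet2, Hdac7 and Kdm6b were also lowest in deleted replicate 1 and highest in deleted replicate 2. Of these, Tet2 and Hdac7 held no match and Kdm6b had no window. Of the 34 tested members 35.3% were lowest in deleted replicate 1, against 21.9% of all genes. A larger share, 38.2%, were lowest in wild-type replicate 1, against 27.5% of all genes, and Tet3, Kdm6a, Kdm5a and Chd4 were among these. In deleted replicate 2 38.2% were highest, against 23.6% of all genes. Capitals mark the match, each stretch reads 5′ to 3′ on the strand of its gene, and a match is a description of letters and not of a bound site.
Dnmt1: cggggcagcgTTTGGCGCgggctgtgc
Uhrf1: gctttctcgcTTCCCGCCacagcgccag
Ezh2: ggttgctgcgTTTGGCGCtcggtccggt
Suz12: gacccctcatTTTCCCGCgaattcagtt
Arid1a: ccctccctccTTTCCCGCCccctccccct

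The Dnmt1 stretch lies at chr9:20952574-20952600 (minus strand), its match beginning at base 34 of the transcript in 1 of 3 annotated windows. For Uhrf1 it lies at chr17:56303279-56303306 (plus strand), 48 bases before 1 of 2 annotated starts. The Ezh2 stretch is at chr6:47595010-47595037 (minus strand), the match beginning at base 4 of the transcript. In Suz12 it is at chr11:79992877-79992904 (plus strand), 219 bases before the start, and in Arid1a at chr4:133754022-133754050 (minus strand), 55 bases before 1 of 2 starts. Dnmt1 and Ezh2 carry the same letters, and their array profiles differed, as given next. The part of these letters in either profile was not tested. Members' windows held a median of 29 CpG dinucleotides against 7 over all windows in the table.

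All 4 tested Polycomb repressive complex genes overlapped between the groups, and the differences ran from 0.00 to 0.21 with a median of 0.03. Ezh2, the catalytic subunit of dividing cells, which activated Treg cells are known to need, read 8.06 and 8.69 on the deleted arrays against 8.01 and 8.68 on the wild-type arrays. Each group had a lower and a higher array at nearly the same levels, and the difference was 0.04 (SE 0.43, 95% interval -1.04 to 1.11). Ezh1, the catalytic subunit of resting cells, differed by 0.02 (SE 0.36), from 7.11 and 7.23 against 7.35 and 6.95. Eed, which reads the mark the complex writes, stood at 9.93 and 9.37 against 9.13 and 9.75 (difference 0.21, SE 0.39).

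Suz12, the scaffold of the complex, gave a less simple picture. Its brightest probe set read 9.69 and 9.70 on the deleted arrays against 9.35 and 10.03 on the wild-type arrays, a difference of 0.00 (SE 0.35). Its 5 probe sets above the filter, however, ran from -1.90 (SE 0.57, unadjusted p = 0.0209, adjusted p = 0.417 over 13999 probe sets) to 1.05 (SE 0.41, unadjusted p = 0.0496). The lowest of them read 4.56 and 5.82 against 6.69 and 7.49, and the highest 7.67 and 8.33 against 6.74 and 7.14. The groups did not overlap on either of these probe sets, in opposite order, so no single direction can be given for Suz12.

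Among the deacetylases 5 of 8 tested genes had a lower mean and 3 a higher one, with a median of -0.01. Hdac1, a catalytic subunit of the Sin3 and NuRD corepressor complexes, read 9.60 and 9.88 on the deleted arrays against 10.01 and 9.58 on the wild-type arrays. Its groups overlapped and differed by -0.05 (SE 0.32, 95% interval -0.87 to 0.76). Hdac2, its close relative, read 9.68 and 8.81 against 8.77 and 9.74, with a difference of -0.01 (SE 0.50), and all 3 of its probe sets lay between -0.12 and -0.01. Hdac3, the catalytic subunit of the NCoR corepressor complex, read lower without overlap, at 6.32 and 6.82 against 7.55 and 7.07 (difference -0.74, SE 0.40, adjusted p = 0.661), and -0.49 without deleted replicate 1.

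The class IIa deacetylases shuttle between nucleus and cytoplasm on signals from the T cell receptor. Hdac7, a partner of Foxp3 and Kat5, read 6.09 and 6.68 on the deleted arrays against 6.62 and 6.16 on the wild-type arrays, a difference of 0.00 to 2 decimals (SE 0.40). Hdac4 read 5.62 and 7.06 against 5.60 and 5.58, so that its difference of 0.75 (SE 0.55) came from deleted replicate 2 and was 0.03 without it. Hdac5 lay just above the filter, at 4.44 and 4.58 against 4.76 and 3.87 (difference 0.19, SE 0.40). Hdac9, whose loss is known to strengthen Treg function in mice, was below the filter and not tested in the main fit. Its brighter probe set read 3.11 and 3.05 on the deleted arrays against 3.33 and 3.73 on the wild-type arrays, near the floor.

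Hdac6 is a mostly cytoplasmic deacetylase that acts on tubulin and on Foxp3. It read 5.46 and 6.18 on the deleted arrays against 7.58 and 6.39 on the wild-type arrays, the lowest difference of the set. The groups did not overlap, and the difference was -1.17 (SE 0.54, 95% interval -2.54 to 0.20, unadjusted p = 0.0806, adjusted p = 0.597). Without wild-type replicate 1 it was -0.57. Sirt1, a deacetylase that depends on NAD, had its high and low arrays in both groups, with 7.82 and 6.68 against 6.39 and 7.83 (difference 0.14, SE 0.66).

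The acetyltransferases had 3 of 5 higher, 2 lower and a median of 0.04. Kat5 (Tip60), which acetylates Foxp3, read 5.88 and 6.16 on the deleted arrays against 6.39 and 5.57 on the wild-type arrays (difference 0.04, SE 0.42). Ep300 (p300), likewise an acetyltransferase for Foxp3, read 9.56 and 9.33 against 9.22 and 9.95 (difference -0.13, SE 0.37, 95% interval -1.08 to 0.81). Both wild-type arrays thus bracketed the deleted ones in each of these genes. Crebbp (CBP), the partner of Ep300, was the member of this class whose groups did not overlap, at 10.28 and 10.61 against 9.40 and 9.90 (difference 0.79, SE 0.33, unadjusted p = 0.0579, adjusted p = 0.529). Its 3 probe sets above the filter gave -0.57, 0.12 and 0.79. Kat2a (GCN5) and Kat2b (PCAF), catalytic subunits of SAGA-type complexes, differed by -0.29 (SE 0.44) and 0.05 (SE 0.36). Kat2a read 8.85 and 9.43 against 9.89 and 8.98, and Kat2b 9.45 and 8.89 against 8.95 and 9.30.

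Of 5 tested histone demethylases 2 were higher and 2 lower without overlap (background 17.7% and 22%), and Kdm6b overlapped. At least 2-fold without overlap were Kdm6a and Kdm5a, higher, and Kdm2b, lower (background 5.57% and 4.93%). The class median of 0.43 was the value of Kdm6b, and so was the -0.28 found without deleted replicate 2. Without that array Kdm6a (1.58), Kdm5a (1.06), Kdm1a (-1.02) and Kdm2b (-1.34) kept their sign. Kdm6a (UTX), which erases the Polycomb mark and is encoded on the X chromosome, read 7.92 and 8.46 on the deleted arrays against 5.92 and 6.76 on the wild-type arrays. In linear intensity this was 241.5 and 353.2 against 60.4 and 108.7, a 3.60-fold ratio of the log means. The difference was 1.85 (SE 0.46, 95% interval 0.70 to 3.0), with the smallest p among the members (unadjusted p = 0.00861, adjusted p = 0.289). The other Kdm6a probe sets above the filter did not show it: 1 read 7.48 and 6.96 against 6.62 and 7.30 (difference 0.26, SE 0.43), and 1 read 5.84 and 5.83 against 5.87 and 5.93 (difference -0.07, SE 0.33). With all its probe sets averaged the difference was 0.50.

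Kdm6b (Jmjd3), the inducible relative with the same substrate, overlapped between the groups, at 8.10 and 9.52 on the deleted arrays against 8.60 and 8.16 on the wild-type arrays (difference 0.43, SE 0.55). Deleted replicate 2 was its highest array, and without it the difference was -0.28. Kdm5a, which removes the methyl mark of active promoters, read 8.64 and 8.90 against 7.28 and 7.87, without overlap (difference 1.19, SE 0.38, unadjusted p = 0.0235, adjusted p = 0.397). Its 3 probe sets above the filter gave -0.35, 1.19 and 2.26. On the last of these wild-type replicate 1 stood alone, at 4.75 against 7.15 to 8.69.

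Kdm2b, which binds unmethylated CpG islands and brings a variant Polycomb complex to them, was lower on both of its probe sets. It read 9.39 and 10.02 on the deleted arrays against 10.88 and 10.58 on the wild-type arrays, and 7.10 and 7.59 against 8.54 and 8.44 on its other probe set. Both deleted arrays were below both wild-type arrays on each. The differences were -1.02 (SE 0.34, 95% interval -1.89 to -0.16, unadjusted p = 0.0282, adjusted p = 0.41) and -1.15 (SE 0.36, unadjusted p = 0.0239, adjusted p = 0.429 over probe sets). Probe sets of 1 gene share the same RNA and are not replicates. Kdm1a (LSD1), a demethylase of the CoREST complex, read 8.96 and 9.58 against 10.31 and 9.64, lower without overlap (difference -0.71, SE 0.40, adjusted p = 0.68), and its second probe set differed by -0.68. Leaving out wild-type replicate 1 gave -0.37 for Kdm1a, and leaving out deleted replicate 1 gave -0.39.

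Setd2 and Kmt2a, the histone methyltransferases outside the Polycomb class, both had a lower mean. Setd2, which marks the bodies of transcribed genes, read 6.34 and 6.50 on the deleted arrays against 7.58 and 6.74 on the wild-type arrays (difference -0.74, SE 0.425, adjusted p = 0.682). Its groups did not overlap, and without wild-type replicate 1 the difference was -0.32. Kmt2a (MLL1), which marks active promoters, overlapped at 7.04 and 7.59 against 7.91 and 6.94 (difference -0.11, SE 0.48), while its other probe set read 8.39 and 7.25 against 5.16 and 7.50 (difference 1.49, SE 0.88).

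All 4 remodeller genes of the set had a higher mean on their brightest probe set, where 4153 of all 8629 genes did. Their median was 0.43, which ran from 0.20 to 0.95 when each array was left out in turn. The 42 other remodeller genes tested did not share this, with 22 higher, 20 lower and a median of 0.02. Chd4, the ATPase of the NuRD complex, which joins remodelling to deacetylation by Hdac1 and Hdac2, read 9.51 and 10.35 on the deleted arrays against 8.26 and 8.54 on the wild-type arrays. Both deleted arrays were clear of the wild-type ones, and the difference was 1.53 (SE 0.41, 95% interval 0.50 to 2.55, unadjusted p = 0.0117, adjusted p = 0.329), or 2.88-fold. Its other probe sets gave 1.85 (SE 0.88), from 7.10 and 8.70 against 5.03 and 7.06, and 0.10 (SE 0.43), from 7.19 and 7.80 against 7.71 and 7.09.

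Smarca4 (BRG1), an ATPase of the BAF complex, had the smallest standard error of the set, at 10.11 and 10.49 against 10.10 and 10.08 (difference 0.21, SE 0.29, 95% interval -0.52 to 0.95). Leaving out deleted replicate 2 gave 0.02 for Smarca4, and its second probe set gave 0.49. Smarca2 (BRM), the alternative ATPase, read 8.45 and 7.77 against 7.33 and 8.54 (difference 0.18, SE 0.54). Its second probe set, close to the filter, gave -0.03, and without wild-type replicate 1 the Smarca2 difference was -0.43. Arid1a, a subunit that BAF uses on chromatin, read 10.29 and 9.73 against 8.90 and 9.84 (difference 0.64, SE 0.44). Without wild-type replicate 1, its lowest array, the difference was 0.17. Its second probe set gave 0.96, from 4.23 and 6.16 against 4.26 and 4.22.

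Of the 89 probe sets 67 passed the filter, and 20 genes had more than 1 of them. In 11 of these 20 the probe sets differed in sign (55.0%), against 47.1% of all genes with several probe sets. A spread of more than 1 on the log2 scale was found in 10 of the 20 (50%), against 24.4% of all such genes. Over probe sets 9 of 67 reached an unadjusted p under 0.05, 6 higher (background 5.58%) and 3 lower (background 3.98%), where 9.56% of all 13999 did, and 0 reached an adjusted p under 0.05 (0%).

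**Figure D4:**
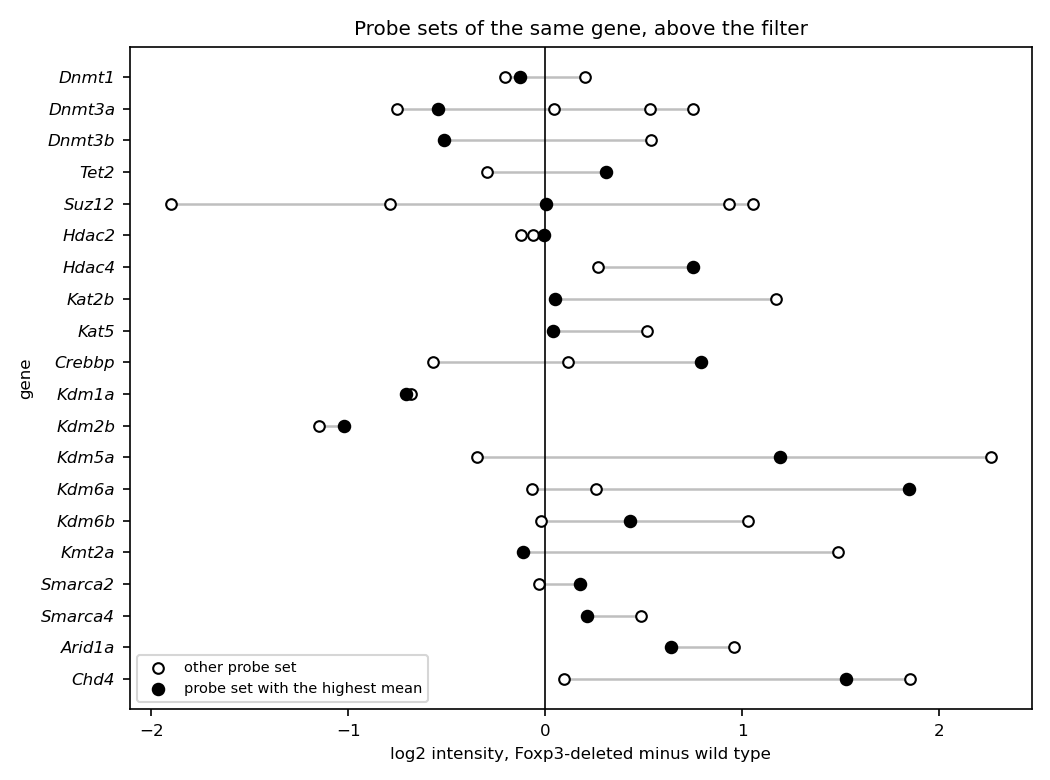
Difference in log2 intensity, Foxp3-deleted minus wild type (x axis), of each probe set above the filter for the 20 chromatin enzymes with more than 1 (y axis); filled points are the probe sets that stand for the gene elsewhere. Suz12 runs from -1.90 to 1.05 and Kdm5a from -0.35 to 2.26, while the points of Kdm1a and of Kdm2b lie close together, left of 0.

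The remaining genes of these classes were taken from a list of 194 written by function. Of 185 measured 166 were tested, 90 with a higher and 76 with a lower mean, and the median difference was 0.03, as for the members. In limma 0 had an adjusted p under 0.05, and 13 an unadjusted p under 0.05 (7.83%), 6 higher and 7 lower, against 9.95% of all genes (5.21% higher and 4.74% lower). By class the median ran from -0.23 for DNA methylation and -0.22 for Polycomb genes to 0.24 for demethylases.

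The largest of their differences were lower means in deleted cells. Gadd45b, a stress-induced gene that has been tied to DNA demethylation, read 7.64 and 7.55 on the deleted arrays against 9.74 and 9.58 on the wild-type arrays (difference -2.07, SE 0.32, adjusted p = 0.117). Prdm1 (Blimp-1), a repressor with a methyltransferase-like domain that marks effector Treg cells, read 4.61 and 4.58 against 6.66 and 6.56 (difference -2.01, SE 0.32, adjusted p = 0.121). In both genes the replicates lay close together and the groups far apart, but the adjusted p missed the threshold. Among the Polycomb genes Phc1 differed by -1.46 (SE 0.46) and Asxl1 by -1.13 (SE 0.37), and among those tied to methylated DNA Zbtb38, which binds it, differed by -1.21 (SE 0.32). The Sin3 subunit gene Sap30 differed by 1.75 (SE 0.57), the NCoR subunit gene Tbl1x by 1.32 (SE 0.35) and the arginine methyltransferase gene Prmt1 by 1.58 (SE 0.43). Of the remodellers Baz2b differed by -1.42 (SE 0.45) and Chd7 by 1.09 (SE 0.42). The largest differences in the other 2 classes were -1.04 for Tada2a and 0.98 for Brpf3 among acetyltransferase genes, and 0.72 for Kdm5b and 0.64 for Kdm2a among demethylases.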

How the data were processed

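RNA was read on 4 single-colour oligonucleotide arrays, 1 per sample, 2 per group, with groups taken from the sample titles. The authors deposited linear intensities; the submitters' processing notes name GCRMA 1.1.3, and the sources used here do not give its other settings. GCRMA subtracts a background estimated from probe sequence, which leaves dim probe sets close to a common floor. The number of arrays limits the precision.

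Values were taken to log2 with no pseudocount. The platform annotation names 1 gene for 34945 of the 45101 probe sets, several for 932 and none for 9160, beside 64 controls; only the first were used, except for the Actb and Gapdh controls. The 34 members and 8629 genes tested had a mean log2 intensity of at least 4 on their brightest probe set. Groups were compared with limma 3.58.1 in R 4.3.3 (lmFit, eBayes with a trend), two-sided, Benjamini-Hochberg over all genes (or all 13999 probe sets), threshold 0.05. Residual degrees of freedom were 2, with 3.31 more from the prior. The procedure was tested on simulated data. Every member is named; of the other chromatin genes the 2 with the largest difference per class, and of the cell cycle list the 4 largest, are named. The members and lists were chosen with earlier results of these data known. Promoters and plots used Python 3.11.15 with pandas 2.3.3 and matplotlib 3.10.9. Alternatives covered the filter, the probe set rule, a pseudocount, a floor, normalization between arrays, the trend, a replicate block and leaving out each array.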

Additional observations from a re-analysis of the deposited data

How the results depend on the processing

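No member had an adjusted p under 0.05 in limma under any of the 18 alternatives, and 12 members kept their sign in all of them when read, in the fit of every probe set, from their brightest probe set: Tet3, Hdac3, Hdac4, Hdac6, Kdm1a, Kdm2b, Kdm5a, Kdm6a, Setd2, Smarca4, Arid1a and Chd4. Much of this was fixed in advance. In all of them but Arid1a the groups did not overlap, so leaving out an array cannot turn the sign of the same probe set. The settings of the filter, the trend and the block leave a difference as it is. Tet3, Hdac3, Hdac6 and Setd2 have 1 probe set each, so the probe set rule cannot turn them. Other probe sets of Kdm5a (-0.35) and Kdm6a (-0.07) had the opposite sign. Genes of all kinds past the adjusted threshold numbered 27 with a filter at 6, 39 with the mean over probe sets, 35 after quantile normalization and 60 after median centring, and 0 otherwise. In those same 4 settings Foxp3 passed it, at -2.55 (adjusted p = 0.0352), -2.55 (0.0317), -2.59 (0.0433) and -2.54 (0.0291), and leaving out each array gave -2.63 to -2.47. Members at an unadjusted p under 0.05 numbered 3 of 33 with the mean over probe sets, where 719 of all 7671 genes reached that p. With every probe set as a feature 9 probe sets of 6 members did, where 1338 of all 13999 did. Without a filter Hdac9, near the floor, reached it beside Kdm6a, Chd4, Kdm5a, Tet3 and Kdm2b, where 1138 of all 18193 genes did. Leaving out each array in turn gave a median member difference of -0.05 to 0.21.

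With the replicate number as a block, 3 members had an unadjusted p under 0.05 (Kdm6a, Chd4 and Tet3) and 0 genes an adjusted one. Of all 8629 genes 587 had such an unadjusted p in that fit, against 859 in the main fit. Samples of the same number tended to deviate from their group means in opposite directions (correlation -0.30 over the genes tested). Deleted replicate 1 thus tended to go with wild-type replicate 2, and the main fit has no term for this. The block joins samples of the same number, so that fit has no term for it either. The cause was not tested, and the labels do not say that the numbers pair samples.

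The mean over probe sets turned the sign of Uhrf1 (0.47), Suz12 (-0.018), Kmt2a (0.69), Crebbp (-0.087), Dnmt3b (0.012) and Dnmt3a (0.0067). Quantile normalization turned Ezh2 (-0.0057) and Suz12 (-0.034), and median centring Hdac7 (0.0097) and Hdac2 (0.0041). The cause was not tested. Leaving out each array turned the sign in 19 members. Their differences then ran from -0.89 to 0.63 for Dnmt1, -0.47 to 1.09 for Tet2, -1.51 to 0.35 for Uhrf1, -0.18 to 0.22 for Ezh1, -0.30 to 0.37 for Ezh2, -0.10 to 0.52 for Eed and -0.34 to 0.35 for Suz12. For deacetylases they ran from -0.27 to 0.16 for Hdac1, -0.49 to 0.48 for Hdac2, -0.25 to 0.64 for Hdac5, -0.30 to 0.29 for Hdac7 and -0.58 to 0.87 for Sirt1. For the others they ran from -0.74 to 0.17 for Kat2a, -0.23 to 0.33 for Kat2b, -0.37 to 0.45 for Kat5, -0.50 to 0.23 for Ep300, -0.28 to 1.14 for Kdm6b, -0.59 to 0.37 for Kmt2a and -0.43 to 0.79 for Smarca2.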
